A study of Mus musculus with 14 samples.

Results

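The 50 genes described here drive DNA replication and mitosis, and they were followed in RNA of mouse lung tumors with or without inactivation of Setd2. They were taken from the 52550 genes of the count table by matching the Ensembl identifier of each row to a fixed list of symbols. The matching used no measured value, but the list was chosen with earlier results of these data known. They were divided by textbook role into 24 S phase genes, whose products license origins, open the helicase, copy DNA or supply nucleotides, and 26 G2/M genes, whose products condense, attach and separate chromosomes. All 50 passed the expression filter, which kept 16836 genes for testing.

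A dividing cell makes these genes in 2 waves. Around the G1/S transition, E2F transcription factors are released from the retinoblastoma protein and raise the genes for origin licensing (Cdc6, Cdt1, Mcm2 to Mcm7), for the replication machinery (Pcna, Pola1, Prim1, Rfc3, Fen1, Lig1) and for nucleotide supply (Rrm1, Rrm2, Tyms, Tk1). In G2, the B-Myb and Foxm1 factors, working with the MuvB complex, raise the mitotic wave, which includes cyclin B with Cdk1, the Polo and Aurora kinases, the spindle checkpoint and the kinesin motors. Non-dividing cells keep both waves low, so the level of these genes in a tumor sample is commonly read as a measure of how many of its cells are in cycle.

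The tumors came from mice of mixed strain background of the KPY model, which carried Trp53 flox/flox, a Rosa26 LSL-YFP reporter and a Cre-inducible oncogene allele. Both groups received a lentivirus (LentiCRISPRv2Cre) in the airway that carries Cre and a guide RNA, so that the oncogene was switched on, Trp53 deleted and YFP expressed in infected cells of all tumors. The guide targeted Setd2, the histone H3K36 methyltransferase, in 8 KPY-Setd2KO tumors, and bacterial beta-galactosidase (sgBGal) in 6 KPY-Ctrl tumors. Tumors were microdissected and live YFP+ cells were sorted. By the study's legend there were fewer mice than tumors, the mouse of each tumor is not given in the labels, and a CRISPR tumor can hold cells with different edits. Tests here treat tumors as independent samples, so that p-values are too small if tumors of 1 mouse are alike.

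Sequencing gave between 20072236 and 51828846 estimated counts per tumor. Setd2 RNA lay between 41.9 and 63.6 CPM (counts scaled to a common library size with TMM factors) in KPY-Ctrl tumors and between 17.9 and 47.4 CPM in KPY-Setd2KO tumors, and its mean log2 CPM was lower in KPY-Setd2KO when the difference was set against all 3003 groupings of the tumors (exact permutation test, two-sided, p = 0.00466). In the edgeR test across all genes its log2 fold change was -0.74 ± 0.22 (SE) with an adjusted p of 0.175. Before any result, the tumors have to be described by their cell content. The summed level of 20 macrophage marker genes ranged from 649 to 47508.5 CPM in KPY-Ctrl and from 486 to 82733 CPM in KPY-Setd2KO, although only YFP+ cells were sorted. The summed level of 18 lung epithelial markers moved the other way, from 16158 to 75951 CPM in KPY-Ctrl and from 7673 to 69247 CPM in KPY-Setd2KO. Summed marker lists of other cells were at most 142 CPM for endothelial cells, 88.6 CPM for fibroblasts, 21.8 CPM for lymphocytes, 153 CPM for neutrophils and 752 CPM for erythroid cells. In the 7 tumors with the least macrophage RNA the erythroid sum was 62.5 to 752 CPM and the macrophage sum 486 to 2699 CPM. For Csf1r, the receptor by which macrophages sense their growth factor, 7 tumors lay between 2.47 and 5.11 log2 CPM and the other 7 between 7.58 and 8.66 log2 CPM. KPY-Ctrl replicates 1, 2 and 6 and KPY-Setd2KO replicates 1, 2, 3 and 4 were the tumors high in Csf1r. In such bulk samples, fewer dividing cells and less of these RNAs per dividing cell cannot be told apart, and neither can the cell type that holds them.

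The 50 genes together took between 0.143% and 0.204% of all counts in KPY-Ctrl tumors and between 0.091% and 0.160% in KPY-Setd2KO tumors. Per length of exons, Pcna, the sliding clamp of DNA polymerase, was the most abundant, with a median over tumors of 81.9 RPKM. RPKM is here the CPM divided by the length in kilobases of all annotated exons of the gene, merged. The replicative helicase subunits Mcm7 (17.3 RPKM), Mcm3 (16.5 RPKM) and Mcm6 (15.4 RPKM) came next, followed by the mitotic cyclin Ccnb2 (13.8 RPKM). The lowest levels per length were those of Cdc25c (0.444 RPKM), the phosphatase that activates Cdk1, of the kinetochore protein Cenpf (0.602 RPKM) and of the licensing factor Cdc6 (0.998 RPKM). The fewest counts of any of the 50 genes in any tumor were the 13 counts of Cdc25c, while Pcna never had fewer than 2657 counts.

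The S phase and G2/M genes also differ in the sequence around their start, which the division by role did not use. RefSeq windows of 300 bases (250 before and 50 after the start, GRCm38.p6) were at hand for 40 of the 50 genes, 20 of each kind. Words searched on both strands were TTTGAA and TTTAAA for the cell cycle homology region (CHR), the element that MuvB binds, CCAAT for the box that NF-Y binds, and TTTGGCGC, TTTCCCGC, TTTCGCGC and TTTGCCGC for E2F. A CHR word was found in 17 of 20 G2/M windows (85%), in 7 of 20 S phase windows (35%) and in 20.2% of the windows of all tested genes. CCAAT was found in 85% of G2/M, 65% of S phase and 38.5% of all tested windows, and a CHR word together with CCAAT in 80%, 20% and 8.16%. An E2F word was found in 1 of 20 G2/M windows (5%), that of Cdk1, in 8 of 20 S phase windows (40%) and in 3.87% of all tested windows. A word is a description of the letters, and matches may overlap each other.

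**Figure D1:**
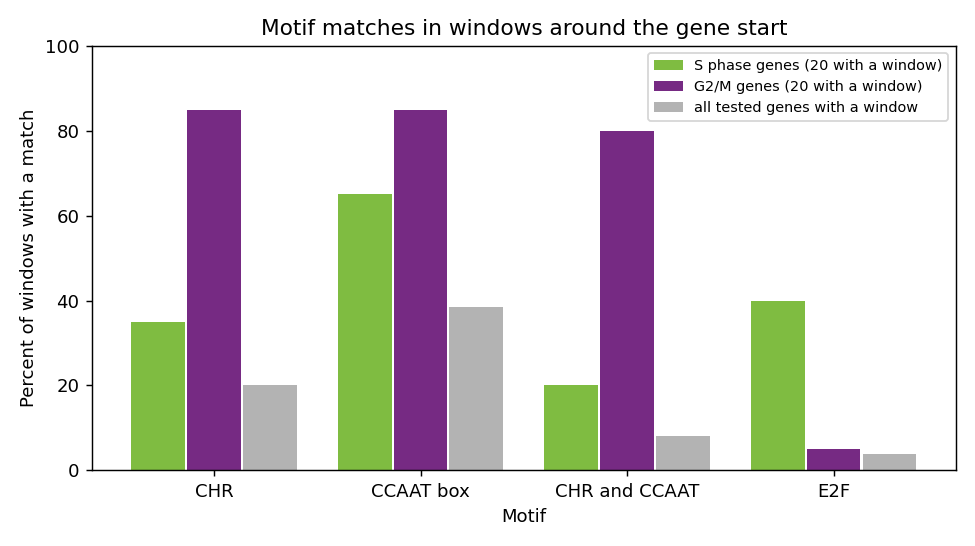
Percent of windows of 300 bases around the gene start that hold a CHR word, a CCAAT box, CHR together with CCAAT, or an E2F word, for the 20 S phase genes and 20 G2/M genes with a window (bars start at 0) and for all tested genes. CHR words stand at 85% in G2/M genes against 35% in S phase genes, and E2F words at 5% against 40%.

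The bases before the start are shown for G2/M genes that recur in the results below, in lower case with the matched words in capitals, read in the direction of transcription. Cdc20, Cenpa and Ccnb2 are shown because they were called lower in KPY-Setd2KO in the fit with the macrophage score, and Cdk1 because its window is the only G2/M window here with all 3 kinds of word.
Cdc20 (chr4:118437344-118437593, minus strand): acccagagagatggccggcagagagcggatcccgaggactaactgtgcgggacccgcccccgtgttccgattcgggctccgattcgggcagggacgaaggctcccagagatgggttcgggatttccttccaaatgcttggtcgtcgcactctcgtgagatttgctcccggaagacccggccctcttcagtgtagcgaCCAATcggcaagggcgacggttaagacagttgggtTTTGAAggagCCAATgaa
Cenpa (chr5:30666636-30666885, plus strand): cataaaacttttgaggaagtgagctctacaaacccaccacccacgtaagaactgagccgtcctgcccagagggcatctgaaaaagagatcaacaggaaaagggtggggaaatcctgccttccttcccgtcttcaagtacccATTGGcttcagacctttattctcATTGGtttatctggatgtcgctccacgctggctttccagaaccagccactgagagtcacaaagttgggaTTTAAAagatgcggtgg
Ccnb2 (chr9:70421555-70421804, minus strand): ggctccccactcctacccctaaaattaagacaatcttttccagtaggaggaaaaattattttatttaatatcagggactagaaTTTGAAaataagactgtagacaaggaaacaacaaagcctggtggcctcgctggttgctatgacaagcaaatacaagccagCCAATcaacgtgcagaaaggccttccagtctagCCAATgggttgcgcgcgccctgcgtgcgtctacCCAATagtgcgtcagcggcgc
Cdk1 (chr10:69352913-69353162, minus strand): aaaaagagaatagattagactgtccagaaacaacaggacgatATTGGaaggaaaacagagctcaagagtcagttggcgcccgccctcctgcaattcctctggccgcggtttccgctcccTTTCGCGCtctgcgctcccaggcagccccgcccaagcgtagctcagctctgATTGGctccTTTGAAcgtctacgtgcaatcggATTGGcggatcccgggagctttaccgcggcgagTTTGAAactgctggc
In Cdc20 and Cenpa a CHR word begins 18 and 17 bases before the start. Cdc20 has a CCAAT box on each side of it, 53 and 8 bases before the start, and both boxes of Cenpa lie upstream of it, written ATTGG because they are on the other strand. Ccnb2 and Cenpa each had a further CHR word, 5 and 17 bases after the start, beyond the printed bases. Kif23, whose bases are not printed, had its CHR word 3 bases after the start. For S phase, Mcm2 is shown because it was called lower in the same fit, and Mcm5 and Mcm6 because they belong to the same helicase and hold E2F words.
Mcm2 (chr6:88898781-88899030, minus strand): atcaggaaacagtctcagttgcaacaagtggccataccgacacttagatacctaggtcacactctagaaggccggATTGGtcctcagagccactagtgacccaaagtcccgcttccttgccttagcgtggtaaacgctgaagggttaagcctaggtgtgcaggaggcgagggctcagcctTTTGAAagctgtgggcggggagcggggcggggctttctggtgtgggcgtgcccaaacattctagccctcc
Mcm5 (chr8:75109259-75109508, plus strand): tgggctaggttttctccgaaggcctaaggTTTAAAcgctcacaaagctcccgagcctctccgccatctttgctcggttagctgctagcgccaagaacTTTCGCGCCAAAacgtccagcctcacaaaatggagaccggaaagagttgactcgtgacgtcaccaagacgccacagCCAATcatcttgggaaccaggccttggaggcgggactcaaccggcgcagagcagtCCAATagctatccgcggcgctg
Mcm6 (chr1:128359706-128359955, minus strand): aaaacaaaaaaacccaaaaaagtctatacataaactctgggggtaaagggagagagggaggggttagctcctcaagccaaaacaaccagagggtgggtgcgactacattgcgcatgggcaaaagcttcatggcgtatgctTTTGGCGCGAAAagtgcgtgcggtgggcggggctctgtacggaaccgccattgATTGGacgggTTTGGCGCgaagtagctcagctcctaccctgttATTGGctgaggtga
Mcm2 held a CHR word and a CCAAT box but none of the E2F words in its window, while Mcm5 held 2 and Mcm6 held 3 overlapping or separate E2F matches. Cdt1 held an E2F word 33 bases after the start. No match in these windows says nothing about the factor elsewhere.

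The comparison of KPY-Setd2KO with KPY-Ctrl asks whether loss of Setd2 goes with a different level of the replication and mitosis genes. In the edgeR quasi-likelihood test with genotype alone, no S phase gene and no G2/M gene passed an adjusted p of 0.05, and the same held for all 16836 genes (0%). At an unadjusted p under 0.05, 9 of the 50 genes were lower in KPY-Setd2KO, against 6.8% of all tested genes, and 0 of 50 were higher, against 6.93% of all tested genes. Of the 9, Mcm2 and Cdt1 belong to S phase, and Kif23, Cdc20, Cenpa, Foxm1, Cdc25c, Ube2c and Cenpf to G2/M. The median log2 fold change was -0.36 over the G2/M genes, of which 24 of 26 were below 0, and -0.13 over the S phase genes, of which 18 of 24 were below 0. Over all tested genes the median was 0.03 and 47.3% were below 0. The S phase median was -0.02 without KPY-Ctrl replicate 6, -0.07 without KPY-Setd2KO replicate 6, -0.08 without KPY-Setd2KO replicate 7 and -0.20 without KPY-Setd2KO replicate 1. With the counts scaled by library size alone, which moved the median of all genes to -0.11, it was -0.26, and 19 of the 50 genes (6 S phase, 13 G2/M) had an unadjusted p under 0.05. In that fit 2461 of all tested genes did so, in either direction. DESeq2 on the same counts called 770 genes, among them Mcm2 of the S phase genes and Kif23, Cdc20 and Foxm1 of the G2/M genes, all 4 lower in KPY-Setd2KO. The groups overlapped for every one of the 50 genes, and the share of all tested genes whose groups overlapped is not given here.

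**Figure D2:**
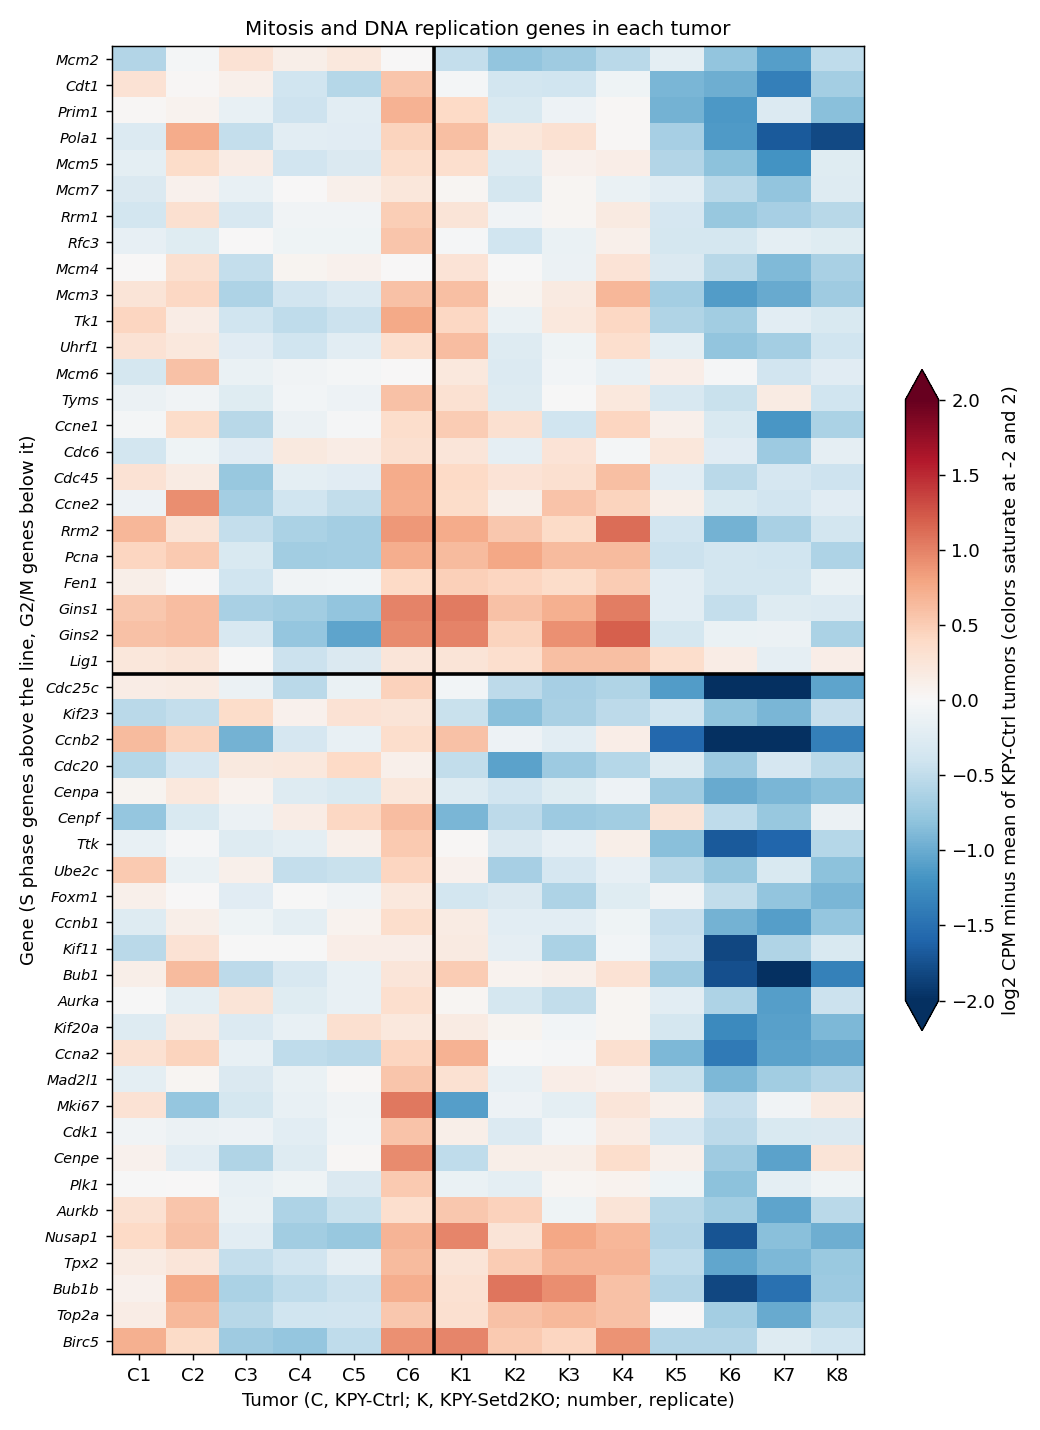
Log2 CPM of the 24 S phase and 26 G2/M genes in each tumor (columns, 6 KPY-Ctrl and 8 KPY-Setd2KO), drawn as the difference from the mean of the KPY-Ctrl tumors, with genes sorted by log2 fold change within each kind. Blue is deepest in KPY-Setd2KO replicates 6 and 7, and 24 of 26 G2/M genes had a log2 fold change below 0.

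Kif23, a kinesin of the central spindle needed for cytokinesis, had the smallest p of the 50. Its level was 44.8 CPM at the lowest, 73.3 at the median and 83.5 at the highest in KPY-Ctrl, and 34.3, 43.3 and 49.4 CPM in KPY-Setd2KO. The overlap came from KPY-Ctrl replicates 1 and 2 (44.8 and 46.7 CPM), while the other 4 KPY-Ctrl tumors lay above all KPY-Setd2KO tumors. The log2 fold change was -0.66 ± 0.17 (SE) with an adjusted p of 0.133.

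Mcm2, a subunit of the MCM2-7 helicase that is loaded at origins in G1, followed closely. It had 34.3 CPM at the lowest, 53.9 at the median and 63.2 at the highest in KPY-Ctrl, against 24.2, 33.6 and 45.2 CPM in KPY-Setd2KO. Only KPY-Ctrl replicate 1 (34.3 CPM) fell into the range of the other group. Its log2 fold change was -0.64 ± 0.16 (SE) with an adjusted p of 0.133, and it was the S phase gene farthest below 0. The other MCM subunits were nearer to 0, between -0.27 for Mcm5 and -0.11 for Mcm6, and Mcm7 stood at -0.26 ± 0.15 (SE), adjusted p = 0.475.

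Cdc20, the activator of the anaphase promoting complex, ranged from 19.0 to 37.3 CPM in KPY-Ctrl (median 31.2) and from 13.5 to 23.5 CPM in KPY-Setd2KO (median 19.2). Its 2 lowest KPY-Ctrl tumors were again replicates 1 and 2. The log2 fold change was -0.61 ± 0.17 (SE), adjusted p = 0.157. Cenpa, the histone H3 variant that marks centromeres, had 13.9 CPM at the lowest, 18.0 at the median and 20.2 at the highest in KPY-Ctrl, against 8.56, 11.8 and 16.1 CPM in KPY-Setd2KO. Here 5 of 8 KPY-Setd2KO tumors lay below every KPY-Ctrl tumor, and the log2 fold change was -0.54 ± 0.18 (SE), adjusted p = 0.217.

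Cdt1, which loads the MCM helicase onto origins, had 15.5, 24.0 and 33.7 CPM as the lowest, median and highest values in KPY-Ctrl and 8.92, 15.9 and 22.3 CPM in KPY-Setd2KO. Its log2 fold change was -0.59 ± 0.23 (SE), adjusted p = 0.280. Cdc25c was scarce, from 2.17 to 4.39 CPM in KPY-Ctrl (median 3.22) and from 0.674 to 3.04 CPM in KPY-Setd2KO (median 1.74), and it had the log2 fold change farthest from 0 of the 50, -0.93 ± 0.34 (SE), adjusted p = 0.251. Ccnb2, the second B-type cyclin, varied 8.87-fold between tumors, the most of the genes named here, from 12.4 to 37.3 CPM in KPY-Ctrl (median 26.1) and from 4.2 to 35.8 CPM in KPY-Setd2KO (median 14.99). Its log2 fold change was -0.63 ± 0.45 (SE), adjusted p = 0.599.

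The genes most often used to count dividing cells did not differ beyond the spread between tumors. Mki67, whose protein is the Ki-67 antigen, had a log2 fold change of -0.24 ± 0.27 (SE), adjusted p = 0.772, with medians of 41.9 CPM in KPY-Ctrl and 42.6 CPM in KPY-Setd2KO. Top2a, the DNA topoisomerase of mitotic chromosomes, stood at 0.03 ± 0.30 (SE), adjusted p = 0.983. Pcna stood at 0.10 ± 0.32 (SE), adjusted p = 0.933, with 113 to 303 CPM in KPY-Ctrl and 119 to 310 CPM in KPY-Setd2KO. Cdk1, the mitotic kinase itself, stood at -0.20 ± 0.16 (SE), adjusted p = 0.644, and its partner Ccnb1 at -0.41 ± 0.20 (SE), adjusted p = 0.396.

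The remaining named genes lay within their spread as well. The mitotic kinases Plk1 (-0.18 ± 0.17 SE) and Aurkb (-0.17 ± 0.29 SE) had adjusted p-values of 0.724 and 0.864. Ribonucleotide reductase subunit Rrm2 (0.08 ± 0.37 SE) and the primase subunit Prim1 (-0.36 ± 0.25 SE) had adjusted p-values of 0.955 and 0.588. The G1/S cyclin Ccne1 (-0.08 ± 0.28 SE) and Uhrf1 (-0.14 ± 0.23 SE), which brings the maintenance methyltransferase to replicated DNA, had adjusted p-values of 0.940 and 0.855. By role, the median log2 fold change was -0.23 for the 8 licensing genes, 0.21 for the 3 helicase activators (Cdc45, Gins1, Gins2) and -0.33 for the 4 spindle checkpoint genes.

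The 2 waves were set against each other in each tumor by the mean log2 CPM of the G2/M genes minus that of the S phase genes. This difference was -0.42 at the lowest, -0.28 at the median and -0.13 at the highest in KPY-Ctrl, and -0.77, -0.50 and -0.38 in KPY-Setd2KO. KPY-Ctrl replicate 2 (-0.42) was the only KPY-Ctrl tumor within the range of KPY-Setd2KO. The mean of the S phase genes spanned 4.28 to 5.07 log2 CPM in KPY-Ctrl and 3.96 to 4.95 in KPY-Setd2KO, and that of the G2/M genes 4.03 to 4.78 and 3.23 to 4.4. The means of both kinds were highest in KPY-Ctrl replicate 6 and lowest in KPY-Setd2KO replicates 6 and 7. Because the genes of a list are not independent, these means carry no test. As a description, the S phase mean and the G2/M mean ran together within the 6 KPY-Ctrl tumors (Pearson's r = 0.966) and within the 8 KPY-Setd2KO tumors (r = 0.964).

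Not every gene followed the mean of its own kind. After centring within genotype, the median r between pairs of genes over the 14 tumors was 0.665 for S phase pairs, 0.592 for G2/M pairs and 0.637 for mixed pairs. Mcm3 followed the S phase mean most closely among the MCM genes (r = 0.974) and Ttk, the checkpoint kinase Mps1, followed the G2/M mean with r = 0.942. Mki67 (r = 0.095), Kif23 (0.122), Cenpf (-0.125), Cdc20 (-0.286) and Mcm2 (0.0008) did not. Each gene was left out of the mean it was set against. These 5 values and those before them are descriptions, since all genes share the same libraries. They also take in the distance between the tumors high and low in Csf1r. The S phase and G2/M means were higher in the high tumors. None of these 5 genes went up with the macrophage score at an adjusted p under 0.05. How far that distance sets r was not tested.

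The genes outside the list whose pattern was most like the G2/M mean were Spdl1 (r = 0.962), Shcbp1 (0.960), Ncapd2 (0.958), Ndc80 (0.945), Ncapg (0.945), Tmem97 (0.941), Ckap2 (0.940), Dlgap5 (0.936) and Nudt5 (0.936), over 14 tumors centred within genotype. Those most like the S phase mean were Ncapg (r = 0.979), Nuf2 (0.961), Cenph (0.960), Racgap1 (0.956), Nck1 (0.954), Spdl1 (0.954), Dscc1 (0.953), Mre11a (0.950) and Ndc80 (0.946). Spdl1, Ndc80 and Ncapg stood in both lists. Their slopes on the macrophage score, described next, were between 0.27 for Spdl1 (adjusted p = 0.00107) and 0.36 for Ndc80 (adjusted p = 0.000129). These slopes add no separate evidence. The genes were picked by their likeness to means that were themselves higher in the tumors high in Csf1r.

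The relation to macrophage RNA was measured as the slope of each gene on a macrophage score, the mean log2 CPM of the 20 macrophage markers, in an edgeR fit with genotype. A slope of 1 means that the gene doubles where the score goes up by 1 log2 unit. At an adjusted p under 0.05, 17 of 24 S phase genes and 14 of 26 G2/M genes went up with the score, together 31 of 50, against 28.2% of all tested genes. In the other direction only Cdc20 passed, against 28.2% of all tested genes. Median slopes were 0.14 for S phase genes, 0.11 for G2/M genes and -0.01 for all tested genes, and 0.06, 0.04 and -0.10 when the counts were scaled by library size alone, without the TMM factors. All 18 epithelial markers went down with the score (median slope -0.42). The summed neutrophil markers were 107 to 153 CPM in the 7 tumors high in Csf1r and 6.72 to 62.5 CPM in the other 7, and the summed endothelial markers 79.5 to 142 CPM and 16.5 to 67.1 CPM, without overlap in either list. The part of these cell types in the slopes was not tested.

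Birc5, the survivin subunit of the chromosomal passenger complex, had the smallest p. In the tumors high in Csf1r it had 24.8 to 36.0 CPM in KPY-Ctrl and 25.7 to 37.6 CPM in KPY-Setd2KO, and in the other tumors 11.1 to 13.4 CPM and 12.6 to 16.0 CPM. Its slope was 0.29 ± 0.04 (SE), adjusted p = 3.23e-05, which is 1.22-fold for each doubling of the score. Pcna behaved in the same way, with 245 to 310 CPM in the tumors high in Csf1r and 113 to 148 CPM in the others, and a slope of 0.25 ± 0.04 (SE), adjusted p = 4.67e-05. In both genes the tumors high in Csf1r did not overlap the others, in either genotype. Both are shown for the smallest slope p of their list, and the share of all tested genes without such overlap is not given here. The remaining genes with the smallest p were Gins1 (0.29, adjusted p = 8.47e-05) and Rrm2 (0.29, adjusted p = 9.03e-05) in S phase, and the checkpoint kinase Bub1b (0.34, adjusted p = 0.000192) and the spindle protein Nusap1 (0.32, adjusted p = 0.000203) in G2/M.

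Of the other named genes, Top2a (0.21, adjusted p = 0.000877), Aurkb (0.20, adjusted p = 0.000599), Uhrf1 (0.14, adjusted p = 0.00794) and Mcm5 (0.13, adjusted p = 0.0150) went up with the score. Mki67 (0.02, adjusted p = 0.797), Plk1 (0.07, adjusted p = 0.123), Cdk1 (0.07, adjusted p = 0.0734), Ccnb1 (0.10, adjusted p = 0.0517), Ccne1 (0.11, adjusted p = 0.104) and Mcm2 (-0.05, adjusted p = 0.208) did not pass. Cdc20 went down with the score by -0.09 ± 0.03 (SE), adjusted p = 0.0247. Ccnb1 passed without KPY-Ctrl replicate 1 or 5 or KPY-Setd2KO replicate 5, Cdk1 without KPY-Ctrl replicate 2 and Ccne1 without KPY-Setd2KO replicate 5. Scaling by library size alone ended the calls of Uhrf1 (0.06, adjusted p = 0.241) and Mcm5 (0.06, adjusted p = 0.297) and gave one for Mcm2 (-0.14, adjusted p = 0.0102). It left 7 S phase genes and 9 G2/M genes going up and 1 and 3 going down, where all genes tested split into 3093 up and 6714 down.

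**Figure D3:**
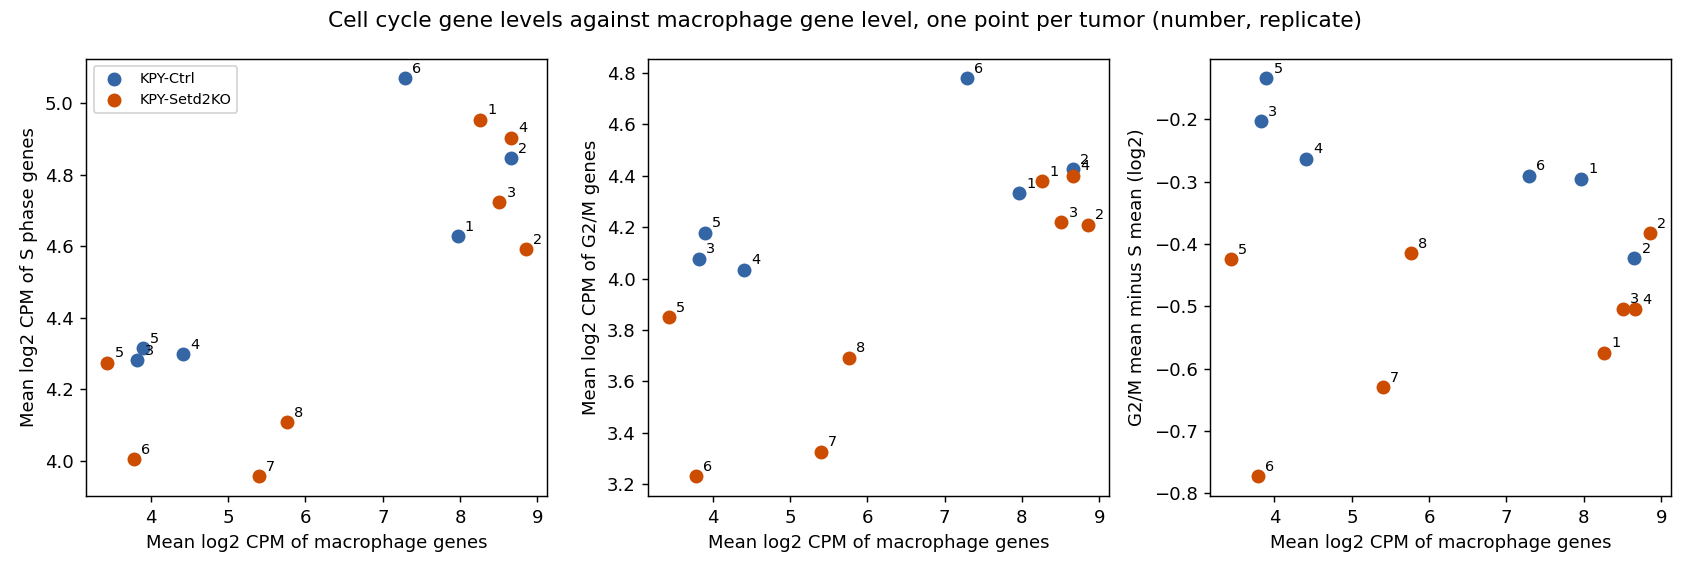
Mean log2 CPM of the 24 S phase genes (left), of the 26 G2/M genes (middle) and their difference (right) against the mean log2 CPM of the 20 macrophage markers, 1 point per tumor with its replicate number. S and G2/M means are higher in the tumors on the right, and in the right panel all KPY-Ctrl tumors but replicate 2 (-0.42) lie above all KPY-Setd2KO tumors.

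The slopes rest on the distance between the 7 tumors high and the 7 low in Csf1r. The gap between these sets took 39.8% of the whole Csf1r range, so that no correlation over the 14 tumors is given. Within the sets, 12 relations of Csf1r to Mki67, Top2a, Cdk1, Pcna, Mcm2 and Rrm2 were computed on log2 CPM centred within genotype. Two-sided permutation tests used all orders of the 7 tumors. These include orders that swap centred values between genotypes, so that the p-values are approximate. For the 7 tumors high in Csf1r, Cdk1 was lower where Csf1r was higher (Pearson's r = -0.954, permutation p = 0.00278, adjusted p = 0.0333). Without centring r was -0.930 and did not pass (adjusted p = 0.0643), so that the call depends on the centring. KPY-Ctrl replicate 6 had the lowest Csf1r of these tumors (7.58 log2 CPM) and the highest Cdk1 (45.9 CPM). Spearman's rho for the same tumors was -0.821 (permutation p = 0.0341, adjusted p = 0.410). On the same centred values, r without the 2 tumors farthest from the median of Csf1r was -0.882. None of the other 11 relations passed, with r between -0.630 (Pcna, low tumors) and 0.411 (Mki67, low tumors) and adjusted p-values of 0.474 and above. For Pcna, r was -0.630 in the low and -0.500 in the high tumors, and without the 2 tumors farthest from the median of Csf1r it was -0.682 and 0.317, so that its sign in the high tumors rests on those 2.

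With the macrophage score in the fit, the genotype comparison asks how the groups differ at an equal level of macrophage RNA. Here 7 of 50 genes passed an adjusted p of 0.05 as lower in KPY-Setd2KO, 2 of 24 in S phase and 5 of 26 in G2/M, against 1.48% of all tested genes. No gene of the list passed as higher, against 2.07% of all tested genes. The 7 were Cenpa (log2 fold change -0.62 ± 0.12 SE, adjusted p = 0.0251), Cdt1 (-0.70 ± 0.17, adjusted p = 0.0401), Mcm2 (-0.60 ± 0.15, adjusted p = 0.0433), Cdc25c (-1.11 ± 0.28, adjusted p = 0.0443), Cdc20 (-0.54 ± 0.14, adjusted p = 0.0448), Kif23 (-0.61 ± 0.15, adjusted p = 0.0448) and Ccnb2 (-1.02 ± 0.27, adjusted p = 0.0476). These are decreases of 1.54-fold for Cenpa, 1.62-fold for Cdt1, 1.51-fold for Mcm2, 2.16-fold for Cdc25c, 1.45-fold for Cdc20, 1.52-fold for Kif23 and 2.03-fold for Ccnb2. All 26 G2/M genes had a log2 fold change below 0 (median -0.47), as did 20 of 24 S phase genes (median -0.18), beside a median of -0.02 over all tested genes. The S phase median was -0.10 without KPY-Ctrl replicate 6.

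**Figure D4:**
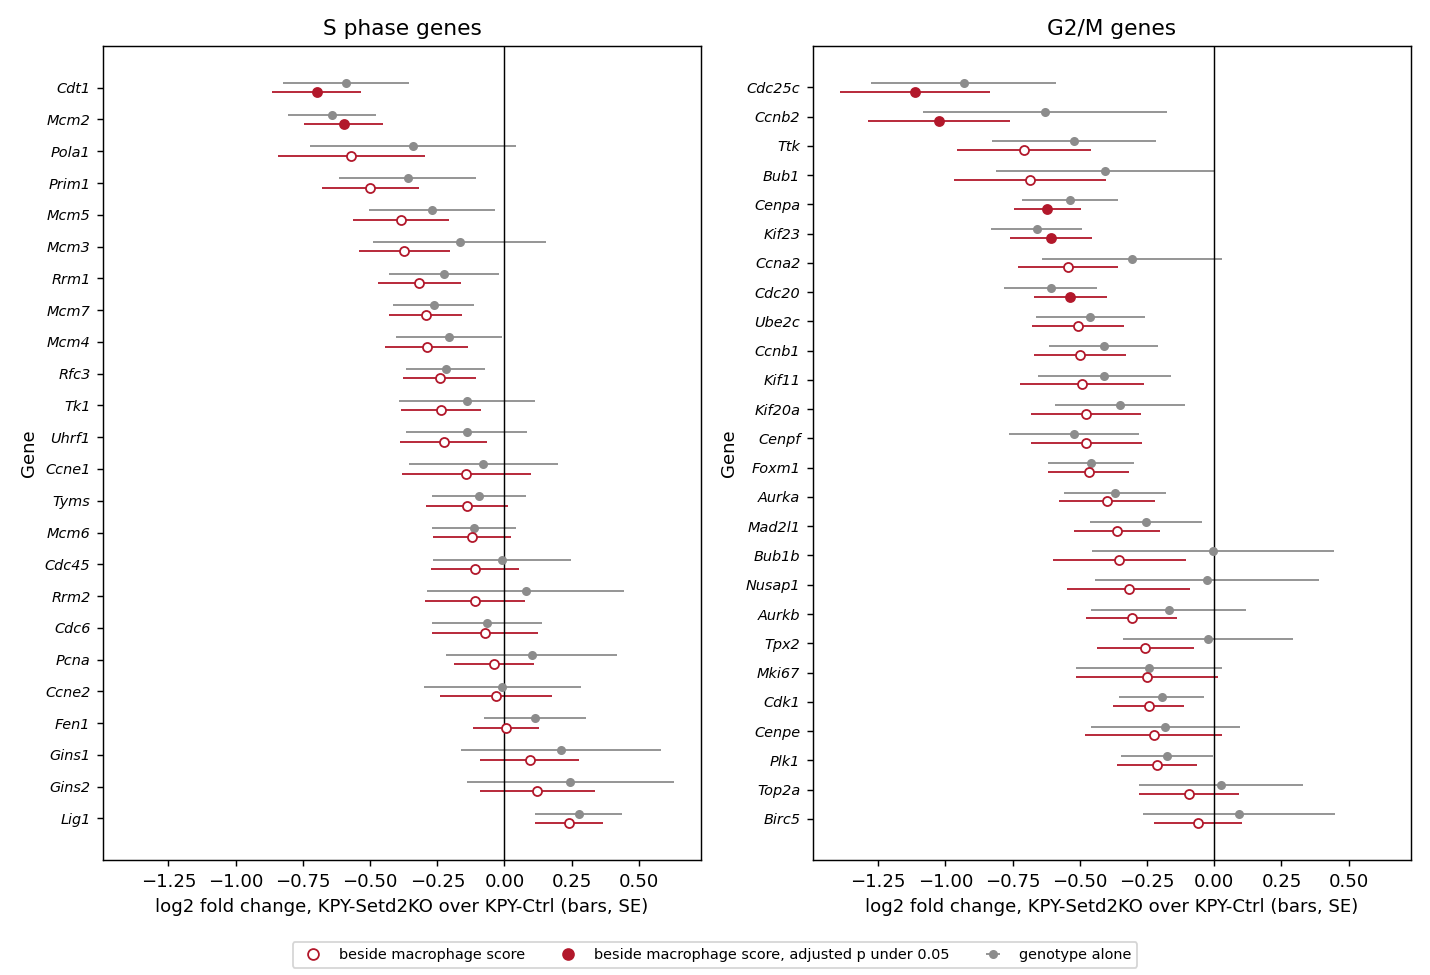
Log2 fold change of KPY-Setd2KO over KPY-Ctrl with its SE for each S phase gene (left) and G2/M gene (right), from the fit with genotype alone (gray) and with the macrophage score (red, filled where the adjusted p was under 0.05). The 7 filled points are Cdt1 and Mcm2 in S phase and Cdc25c, Ccnb2, Cenpa, Kif23 and Cdc20 in G2/M.

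The 7 genes differed in how the score entered. Ccnb2, Cdc25c, Cdt1 and Cenpa went up with the score (slopes of 0.35, 0.19, 0.15 and 0.11), Kif23 and Mcm2 had slopes of -0.06 and -0.05 that did not pass, and Cdc20 went down. For Ccnb2 the fold change moved most, from -0.63 to -1.02. Among the tumors low in Csf1r it had 12.4 to 21.5 CPM in KPY-Ctrl and 4.2 to 9.26 CPM in KPY-Setd2KO, without overlap, and among those high in Csf1r 30.6 to 37.3 CPM and 20.7 to 35.8 CPM. For Kif23 the same tumors read differently, since the 3 low KPY-Ctrl tumors (69.0 to 83.5 CPM) and replicate 6 stood high and the 2 others (44.8 and 46.7 CPM) lay among the KPY-Setd2KO tumors.

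**Figure D5:**
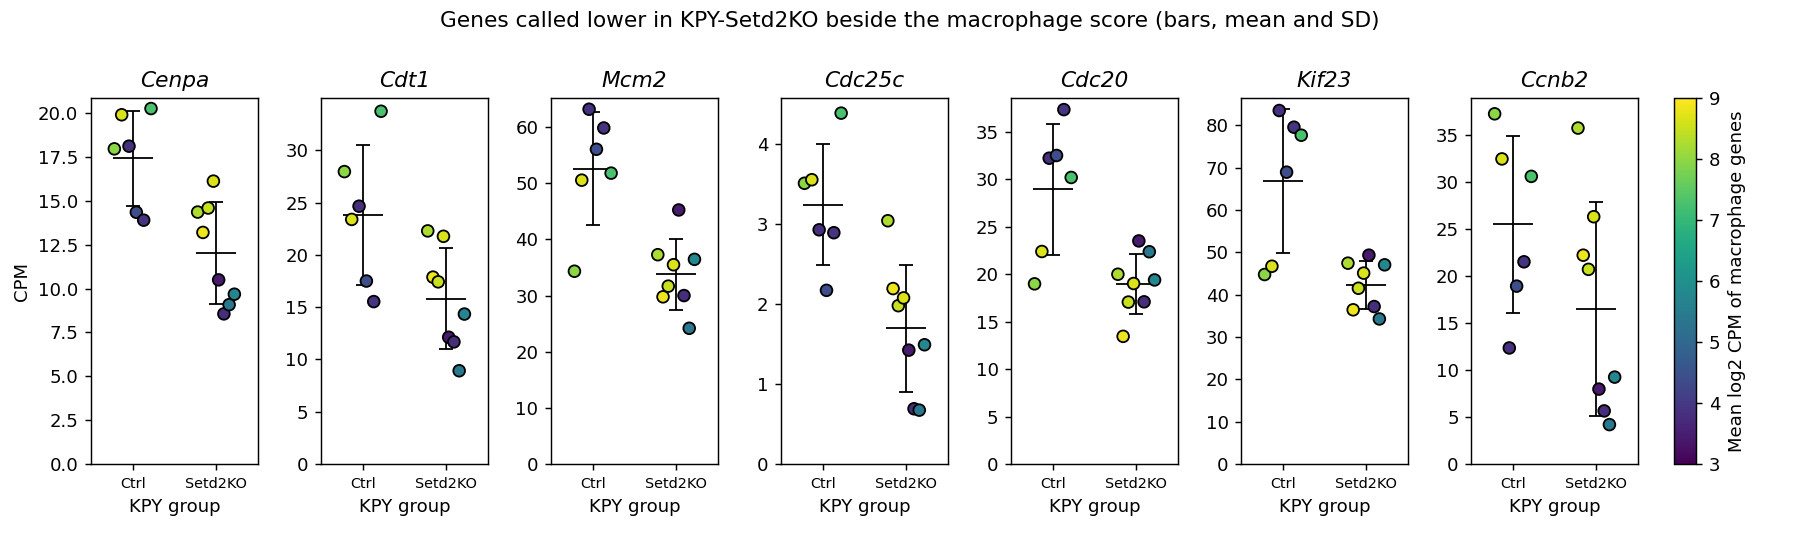
CPM of the 7 genes that passed with the macrophage score, by group, 1 point per tumor colored by macrophage score, with mean and SD (6 KPY-Ctrl, 8 KPY-Setd2KO). Groups overlap in each gene, and the lowest Ccnb2 values (4.2 to 9.26 CPM) are those of 4 KPY-Setd2KO tumors with low scores.

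These calls were close to the threshold. Leaving out KPY-Setd2KO replicate 1 gave 8 calls among the 50 genes, leaving out KPY-Ctrl replicate 2 gave 4, and leaving out KPY-Ctrl replicate 4, KPY-Ctrl replicate 5 or KPY-Setd2KO replicate 6 gave 0. The calls over all tested genes moved as well, from 906 without KPY-Setd2KO replicate 1 to 25 without KPY-Ctrl replicate 5. Only Cenpa passed without KPY-Ctrl replicate 3 or 6, without KPY-Setd2KO replicate 2, 3, 4, 7 or 8, and in a fit of all tumors without the expression filter. An interaction of genotype with the score passed for 0.582% of all tested genes and for 0 of 50 genes (smallest adjusted p = 0.538, and 0 of 50 at an unadjusted p under 0.05), so that a different slope in the 2 genotypes was not detected.

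Other genes of the same processes were listed as well, with earlier results of these data known. None of 42 further S phase genes and 50 further G2/M genes passed for genotype alone, with median log2 fold changes of -0.18 and -0.24. With the macrophage score, the catalytic subunit of the leading strand polymerase, Pole, passed in the S phase list (-0.92 ± 0.20 SE, adjusted p = 0.0293), from a mean of 11 CPM in KPY-Ctrl to 5.77 CPM in KPY-Setd2KO, and none of the 50 further G2/M genes did (median -0.38, smallest adjusted p = 0.0761). Pole was thus the only 1 of these further genes called lower, where 1.48% of all tested genes were. At an unadjusted p under 0.05 in that fit, 9 of 42 further S phase and 19 of 50 further G2/M genes were lower and 1 of each was higher. Over all tested genes, 11.7% were lower and 1788 of 16836 were higher at that threshold. On the score itself, 26 of 42 further S phase and 32 of 50 further G2/M genes went up, against 28.2% of all tested genes. In the other direction 1 passed, Ect2 (slope -0.18, adjusted p = 0.00280), against 28.2% of all tested genes.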

How the data were processed

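RNA of 14 tumors was sequenced (6 KPY-Ctrl, 8 KPY-Setd2KO). The deposited table holds estimated counts for each gene, which the authors obtained from single-end reads with Salmon 0.8.2 against GRCm38.p5 (the submitters' processing notes and the study's methods) and written as whole numbers. 8 values in the table, all of very abundant genes, are written with 3 digits. The labels describe RNA extraction and a stranded kit for cell lines, and the study's methods name another kit and sorted tumor cells. Whether counting used strand is not given in the sources used here, so reads of Cdc20 and of Elovl1, which overlaps it on the other strand, may not be separated, nor those of Cdt1 and Gm20388, which overlap on the same strand. Ccnb2, Ccnb1, Pcna and Tyms have pseudogenes with which Salmon could share reads. Every column matched 1 sample by name.

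Symbols and lengths came from GENCODE (GRCm38), with an entry for 52403 of 52550 genes. Counts were filtered (filterByExpr, minimum count 10), scaled by TMM and tested with edgeR 4.0.16 in R 4.3.3 (quasi-likelihood test, robust, Benjamini-Hochberg over 16836 genes), with genotype alone, and with genotype and the macrophage score (mean log2 CPM, prior count 2, which understates folds of low genes). The SE was the log2 fold change divided by the square root of F. The fits were tested on simulated data. Alternatives were RLE factors, library size only, other filters, DESeq2 1.42.0, limma 3.58.1 (voom), other scores, a replicate block and leaving out each tumor. The epithelial score and the interaction were added after seeing the data. No 2 tumors had counts that were alike within sampling noise (smallest chi-square per degree of freedom 25.8). The intervals and tests cover the spread between tumors, of which the labels do not name the mice.

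The 50 genes, the lists and the tests were chosen with earlier results of these data known. Named with full values were 12 genes picked by name (Mki67, Top2a, Cdk1, Ccnb1, Plk1, Aurkb, Pcna, Mcm2, Mcm5, Rrm2, Ccne1, Uhrf1) and, in each of the S phase and G2/M lists, the 3 with the smallest p for genotype, the 3 with the largest absolute log2 fold change, the 3 with the smallest p for the slope, and the 10 outside genes with the highest r to each mean, of which 1 in each set is not reported here, nor is 1 allele of the mice. Other genes, Pole and Ect2 among them, were named after their values were seen. Promoter windows came from RefSeq and the sequences of 10 genes were not analysed here.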

Additional observations from a re-analysis of the deposited data

Results flagged for a closer look

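Of 108 groups of values (the 50 genes, Setd2, the S phase and G2/M means and the macrophage score, in each genotype), 8 held a tumor that stood apart from the rest of its group by Dixon's criterion, which chance gives in about 1 of 20 groups. KPY-Ctrl replicate 6 was high in Cdk1 (5.52 log2 CPM where the rest of its group had 4.73 to 4.89), Plk1 (4.16 against 3.34 to 3.63), Rfc3 (5.06 against 4.27 to 4.52) and Tyms (5.21 against 4.37 to 4.55). KPY-Ctrl replicate 1 was low in Kif11 (3.39 against 3.92 to 4.22) and in Mcm2 (5.10 against 5.66 to 5.98). KPY-Setd2KO replicate 6 was low in Plk1 (2.81 against 3.43 to 3.71) and in Kif11 (2.12 against 3.31 to 4.11). KPY-Ctrl replicate 6 also had the highest S phase and G2/M means of all tumors, and KPY-Setd2KO replicate 6 the lowest G2/M mean. Mcm2 is the only one of the 7 genes called with the macrophage score among these, and without KPY-Ctrl replicate 1 it was still called there (log2 fold change -0.70).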

How the results depend on the processing

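With genotype alone, the 0 calls among the 50 genes held in every fit but DESeq2, which called 770 genes, among them 1 S phase and 3 G2/M genes, and Setd2 (-0.74, adjusted p = 0.0492). Leaving out 1 tumor gave 0 to 1 calls over all genes. At an unadjusted p under 0.05 edgeR had 2 S phase and 7 G2/M genes, DESeq2 2 and 8, edgeR with library size only 6 and 13, and the replicate block 1 and 3. Over all tested genes these fits had 2311, 2920, 2461 and 1871, in that order. Median log2 fold changes of the S phase and G2/M genes kept their sign in every fit run, but the S phase median with genotype alone ran from -0.20 to -0.02 when 1 tumor was left out and was -0.047 with the replicate block.

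The calls with the macrophage score depended most on the settings. Without a filter, 271 of all genes, 0 S phase genes and 1 G2/M gene (Cenpa) passed, where more genes were tested. DESeq2 called 1925 genes, limma voom 1218, Csf1r in place of the score 1270 and the epithelial score (chosen after seeing the data) 1096, each with the same 7 of the 50 genes, beside which DESeq2 called Foxm1 and Ttk. Leaving out 1 tumor gave 25 to 906 calls over all genes, 0 to 2 in S phase and 0 to 6 in G2/M. The number of S and G2/M calls fell to 0 without KPY-Ctrl replicate 4 or 5 or KPY-Setd2KO replicate 6, and to Cenpa alone without KPY-Ctrl replicate 3 or 6 or KPY-Setd2KO replicate 2, 3, 4, 7 or 8. It was 4 without KPY-Ctrl replicate 2. A score without Csf1r and Ptprc lost Ccnb2 (adjusted p = 0.0503). The adjusted p of Cenpa was at most 0.0690 over the fits that left out 1 tumor, that of Ccnb2 at most 0.110. Scaling by library size turned the split of all genes from 348 higher and 249 lower to 241 and 483.

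The slopes on the score were called in S phase for 8 genes with library size only, of which 7 went up and Mcm2 went down. In that setting the slopes of Mki67 (-0.068), Cdk1 (-0.012) and Plk1 (-0.015) turned below 0, as did the log2 fold changes of Top2a (-0.12), Pcna (-0.040) and Rrm2 (-0.061). Library size only moved the median log2 fold change of all genes to -0.11 with genotype alone, with a G2/M median of -0.53. Top2a also turned to -0.0078 without a filter and -0.016 with limma voom. Leaving out 1 tumor gave log2 fold changes from -0.36 to 0.043 for Mki67, -0.073 to 0.17 for Top2a, -0.014 to 0.26 for Pcna, -0.11 to 0.28 for Rrm2 and -0.18 to 0.029 for Ccne1, and slopes from -0.014 to 0.057 for Mki67. None of these log2 fold changes, and not the slope of Mki67, passed in any fit run. Leaving out 1 tumor left 15 to 18 S phase and 11 to 16 G2/M slopes called, beside 8708 to 9648 over all tested genes. The relation of Cdk1 to Csf1r in the high tumors was -0.930 (adjusted p = 0.0643) without centring within genotype.

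For tumors with the same replicate number, the deviations from the group means correlated with r between -0.664 and 0.657. The r was above 0 for numbers 1, 2 and 5, whose tumors were both high or both low in Csf1r. It was below 0 for numbers 3, 4 and 6, whose tumors were not. Because r followed the Csf1r level, it cannot tell whether tumors of the same number shared more than that number. With a replicate block over the 12 tumors numbered 1 to 6, the fit with the score called 0 genes in all, 0 in S phase and 0 in G2/M, the slope was called for 4852 genes, 8 in S phase and 9 in G2/M, and Ccne1 stood at 0.11 for genotype. The slopes of Aurkb, Mcm5 and Uhrf1 did not pass there (adjusted p = 0.0953, 0.139 and 0.0733). The block fit uses fewer tumors. Why the remaining values moved was not tested. Cdc25c, at 13 counts in 1 tumor, is the gene most limited by depth. Which cells hold the RNA, whether tumors of 1 mouse are alike, and how far macrophage content or the scale factors (0.831 to 1.24) set the slopes was not tested.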
